A study of Mus musculus with 12 samples.

Results

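Solute carriers, the largest group of membrane transport proteins, were followed in mouse mammary tumour cells across 4 groups of arrays. Members were all probes whose single annotated gene symbol begins with Slc and a number. There were 297 of them among 33012 probes, for 290 of 13840 annotated genes in 50 numbered subfamilies, and 1 further probe with several Slc symbols was left out. Of the 297, 4 belong to genes that share an Slc symbol without being carriers: the scaffold genes Slc9a3r1 and Slc9a3r2, the adaptor gene Slc4a1ap, and Slc7a6os, which lies opposite Slc7a6. The cells were MMT, an established line from a mouse mammary gland tumour (ATCC CCL-51), in all 4 groups. One group received an siRNA against Pea3 (siPea3, 4 arrays), one an siRNA against Erm (siErm, 3 arrays) and one a control siRNA (siCtrl, 3 arrays). The last group was not transfected (2 arrays). No group was transfected without an siRNA, so siRNA and procedure cannot be told apart against it. Each array holds RNA of a separate culture per the labels, and the sources used here do not give the siRNA sequences, their dose or the time of harvest. Pea3 and Erm are older names of Etv4 and Etv5, transcription factors of the ETS family.

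Solute carriers move sugars, amino acids, ions, metals, nucleotides and vitamins across the cell surface and the membranes of organelles. They work as uniporters, as cotransporters driven by sodium or proton gradients, or as exchangers, and members of a numbered subfamily share sequence and often substrates. Family 2 holds the glucose transporters, family 7 the light chains of amino acid exchangers, family 25 the carriers of the inner mitochondrial membrane, families 30 and 39 the zinc exporters and importers, and family 35 the nucleotide sugar carriers of the Golgi and endoplasmic reticulum. In the mammary gland, Slc30a4 is the zinc exporter that mice need to put zinc into milk.

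The values are signals on a linear scale, normalized by the authors, and a probe is called detected on an array where its signal is at least 3 times its noise. Of the 297 members, 121 to 135 were detected on 11 of the arrays and 95 on siPea3 array 2, whose upper quartile of signal over all probes was 7.47, against 10.2 to 14.4 on the others. Etv4, the targeted gene of the siPea3 group, gave signals of 21.1, 20.6, 18.1 and 16.4 on the siPea3 arrays and 36.03, 43.2 and 31.5 on the siCtrl arrays (log2 change -0.95 ± 0.24, SE, limma adjusted p = 0.195). Its groups of arrays did not overlap, but it did not pass over all probes. Etv5 was detected on 0 siErm arrays and on 2 of the 3 siCtrl arrays, close to background, and cannot serve as a check of that siRNA. It was also detected on 0 siPea3 arrays, and it read 23.7 and 1.05 on untransfected arrays 1 and 2. Of the markers, the luminal keratin genes Krt8, Krt18 and Krt19, basal Krt14 and mesenchymal Vim were detected on all 12 arrays, whereas Epcam, Cdh1, Krt5 and the leukocyte genes Ptprc and Cd3e were detected on 0. The endothelial genes Pecam1 and Cdh5, on 2 and 6 arrays, and adipocyte Plin1, on 7, were near background, with group means of at most 3.41. Basal Trp63 was detected on 1 array, B-cell Cd79a on 6, and mesenchymal Col1a1, Col1a2 and Pdgfrb on 6, 7 and 10. Signals are averages over a culture, so fewer expressing cells and less RNA per cell cannot be told apart.

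Which carriers these cells express differed by class. Of the 297 members, 83 (27.95%) were detected on all 12 arrays and 94 (31.65%) on none, close to the 27.75% and 33.39% of all probes. The mitochondrial carriers of family 25 were detected on all arrays with 17 of 36 probes, the zinc importers of family 39 with 9 of 14, and the nucleotide sugar carriers of family 35 with 11 of 23. Organic cation and anion transporters of family 22, which serve liver and kidney, had 0 of 14 probes on all arrays and 9 on none. All 5 probes of the potassium-dependent sodium-calcium exchangers (family 24), genes known from retina, brain and skin, were detected on no array. Of the multifunctional anion exchangers (family 26), 1 of 9 probes was detected on 2 or more arrays. The 157 members detected on at least 2 arrays were tested, and they come from 43 of the subfamilies.

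**Figure D1:**
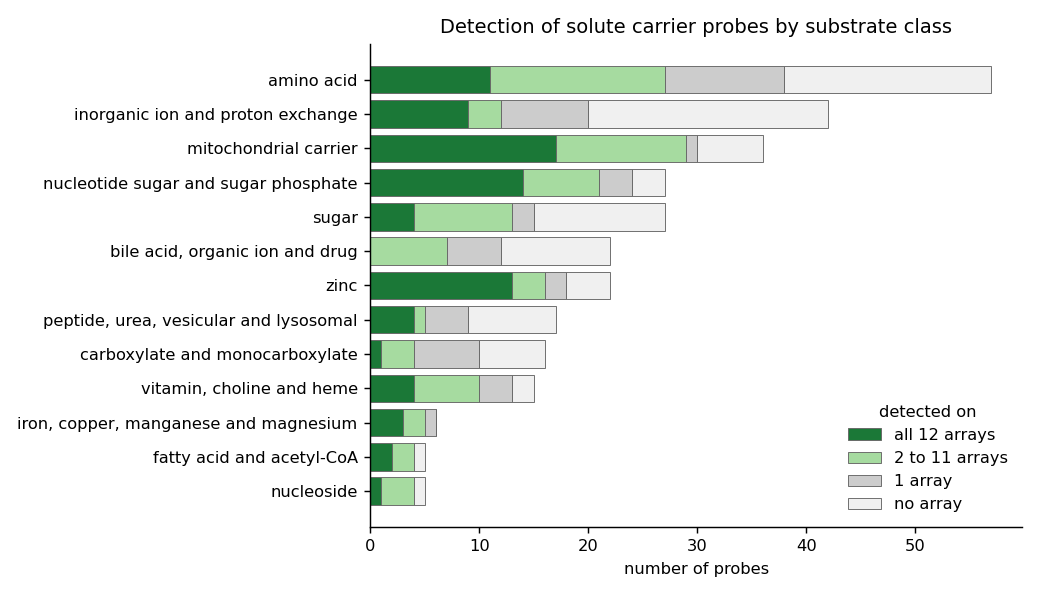
Number of solute carrier probes in each of 13 classes of subfamilies, named for their main substrates, split by the number of arrays on which the probe was detected. The mitochondrial, nucleotide sugar and zinc classes have the most probes detected on all 12 arrays, with 17, 14 and 13, and the bile acid, organic ion and drug class has 0.

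Slc5a1 was the single member called between siPea3 and siCtrl cells, and it was higher in siPea3 cells. It encodes SGLT1, the sodium-glucose cotransporter best known for taking up glucose in the intestine. Its signal was 3.25, 2.96, 5.87 and 3.95 on the siPea3 arrays, 1.01, 0.62 and 0.87 on the siErm arrays, 0.60, 0.67 and 0.48 on the siCtrl arrays, and 0.54 and 0.29 on the untransfected arrays. It was detected on all 4 siPea3 arrays and on none of the other 8, and the siPea3 arrays did not overlap any other group. The change against siCtrl cells was 2.74 ± 0.32 on the log2 scale (SE), about 6.69-fold higher (limma, adjusted p = 0.0177 over 16724 tested probes, called under 0.05). Mean signal was 4.01 ± 1.31 (SD, n = 4) in siPea3 cells and 0.583 ± 0.096 (n = 3) in siCtrl cells. With the replicate number as a block, which pairs these arrays, the change was 2.73 and the adjusted p 0.103. The call was also lost without siPea3 array 4 (adjusted p = 0.0798) or without siCtrl array 1 (0.0576), 2 (0.0758) or 3 (0.12), within a range of 0.0079 to 0.12 over 13 alternatives, while the log2 change stayed between 2.54 and 3.05.

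The 250 bases before the start of Slc5a1 are shown because it is the member called between siPea3 and siCtrl cells. They lie at chr5:33103969-33104218 on the plus strand of GRCm38.p6, from RefSeq, written 5′ to 3′, and none of 4 motifs searched on both strands was found in them.
Slc5a1: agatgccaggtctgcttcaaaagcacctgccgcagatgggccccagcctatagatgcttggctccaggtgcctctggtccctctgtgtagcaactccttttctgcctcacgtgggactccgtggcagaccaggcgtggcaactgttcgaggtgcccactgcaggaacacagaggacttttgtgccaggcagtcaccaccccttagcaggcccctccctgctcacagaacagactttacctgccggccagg
The motifs were the PEA3 site AGGAAG, which ETS factors bind, the AP-1 site TGANTCA, the kappaB site and the interferon-stimulated response element (ISRE). In windows of this length, AGGAAG stood in 29.5% of 32851 promoters and in 29.6% of the 162 promoters of members, and the other motifs in 6.75%, 1.41% and 2.98% of all promoters.

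Between siPea3 and siCtrl cells, 18 of the 157 tested members had an unadjusted p under 0.05, 14 of them lower (limma). So did 2239 of all 16724 tested probes. After adjustment, 1 member (0.637%) was called and 0 were called lower, against 0.0359% of all tested probes (0.0239% higher and 0.012% lower). The 1 was Slc5a1, which entered the test through its detection on siPea3 arrays alone. The members were chosen with earlier results known, so this share gives no support of its own. The median log2 change of the members was -0.20, and that of all probes -0.24. With each array scaled to the median of the probes detected on all arrays, these medians turned positive, to 0.10 and 0.07, so the sign of the shared shift depends on the scaling. The groups of arrays did not overlap for 23 members that were lower in siPea3 cells (14.65%; 12.4% of all probes) and for 5 that were higher (3.185%; 2.84% of all probes).

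None of the other members in this comparison passed the test. Slc2a6, which encodes the glucose transporter family member GLUT6, came next among the higher ones, with 176, 165, 304 and 313 on the siPea3 arrays and 54.8, 91.8 and 88.9 on the siCtrl arrays. Its groups did not overlap, siPea3 arrays 3 and 4 stood above arrays 1 and 2, and the log2 change of 1.58 ± 0.35 had an adjusted p of 0.136. The sulfate transporter gene Slc26a11 (1.48 ± 0.44, adjusted p = 0.247), the organic cation transporter-like gene Slc22a18 (1.31 ± 0.55, 0.34) and the urate transporter gene Slc2a9 (0.49 ± 0.24, 0.394) also had groups that did not overlap. Slc23a3, Slc6a4, the serotonin transporter gene, and Slc25a25, an ATP-magnesium carrier gene, had log2 changes of 1.40, 1.12 and 1.01 with overlapping arrays and adjusted p of 0.399 to 0.419.

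Among members that were lower in siPea3 cells, Slc35g1 had the smallest p. Its product, a family 35 protein also known as TMEM20, binds calcium-sensing STIM proteins in human cells. Signal was 0.71, 1.2, 1.68 and 0.78 on the siPea3 arrays, 2.92, 2.50 and 2.07 on the siErm arrays, 2.88, 4.09 and 4.00 on the siCtrl arrays, and 6.12 and 4.26 on the untransfected arrays. It was detected on no siPea3 array, on 1 siErm array and on every siCtrl and untransfected array, and the siPea3 arrays lay below all others. Against siCtrl cells the log2 change was -1.81 ± 0.33, about 3.51-fold lower, with an adjusted p of 0.0885. It passed where only probes detected on every array of some group were tested (adjusted p = 0.0497, within 0.0497 to 0.322 over 13 alternatives).

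A further 7 members had the next smallest p among the lower ones, and in each the siPea3 arrays lay below the siCtrl arrays. Slc20a1, which encodes the phosphate transporter PiT1, had 55.6, 42.0, 40.7 and 38.4 on siPea3 arrays against 107, 185 and 98.5 on siCtrl arrays (log2 -1.51 ± 0.35, adjusted p = 0.175). The mitochondrial carrier gene Slc25a24, for ATP-magnesium and phosphate, had 44.2, 21.7, 34.8 and 35.5 on siPea3 arrays against 66.9, 95.0 and 71.8 on siCtrl arrays (-1.22 ± 0.30, adjusted p = 0.18). The mitochondrial aspartate-glutamate carrier gene Slc25a13 differed by -0.88 ± 0.22 (adjusted p = 0.18). The carnitine transporter-like gene Slc22a21, the bicarbonate transporter gene Slc4a8, the Golgi UDP-N-acetylglucosamine carrier gene Slc35a3 and the equilibrative nucleoside transporter gene Slc29a2 differed by -1.90, -1.37, -1.0 and -0.85, with adjusted p of 0.119 to 0.292. Slc22a21 was below detection on every siPea3 array.

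Between siPea3 and siErm cells, 0 of the 157 members passed (limma), against 0.00598% of all probes. At an unadjusted p under 0.05 there were 20 members and 1722 of all 16724 probes (limma). The comparison sets the 2 siRNA groups against each other, and a knockdown of Erm could not be checked. Slc5a1 was closest, at 2.24 ± 0.32 on the log2 scale and about 4.73-fold higher in siPea3 cells (adjusted p = 0.0558). It passed with quantile normalization (adjusted p = 0.0496), with scaling to the detected probes (0.0284) and under the stricter filter (0.0333), within 0.0284 to 0.302 over 13 alternatives. Slc2a6 was 1.83 ± 0.35 higher (adjusted p = 0.147), and no siErm array reached the lowest siPea3 array. Slc22a21 differed by -1.97 ± 0.37 (adjusted p = 0.147), Slc35g1 by -1.27 ± 0.33 (0.287) and Slc25a24 by -1.06 ± 0.30 (0.335). Slc15a3, for a lysosomal peptide and histidine transporter, was higher by 0.81 ± 0.34 (adjusted p = 0.466), and Slc7a6, for an amino acid exchanger light chain, differed by -0.86 ± 0.25 (0.341). The median change was -0.18 for members and -0.20 for all probes.

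Between siErm and siCtrl cells, 0 members passed, as did 0.0% of all tested probes (limma). Of all 16724 probes 339 had an unadjusted p under 0.05, and of the members 1 did (limma). That member was Slc25a42, the gene of the mitochondrial coenzyme A carrier. Its siErm arrays read 1.10, 2.97 and 1.58, against 0.32, 0.88 and 0.85 for its siCtrl arrays, a log2 change of 1.48 ± 0.59, about 2.70-fold (adjusted p = 0.9999). It was detected on all 3 siErm arrays and on none of the other 9, although siPea3 array 2, at 1.39, lay within the siErm range. Slc25a42 thus entered the test through its detection on siErm arrays alone, so its p gives no support of its own. The other members with small p were within 1.36 on the log2 scale. The acylcarnitine carrier gene Slc25a20 was at 10.3, 12.9 and 12.3 on siErm arrays against 9.75, 6.24 and 5.56 on siCtrl arrays (0.76 ± 0.43). The organic anion transporter gene Slc22a6 differed by -1.01 ± 0.50, the basic amino acid carrier gene Slc25a29 by -0.57 ± 0.30 and Slc15a3 by -0.69 ± 0.36. Groups did not overlap for 7 members higher and 3 lower in siErm cells (4.459% and 1.911%; 2.57% and 2.89% of all probes). With the replicate block, which pairs these arrays, 0 members passed and 1 again had an unadjusted p under 0.05.

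**Figure D2:**
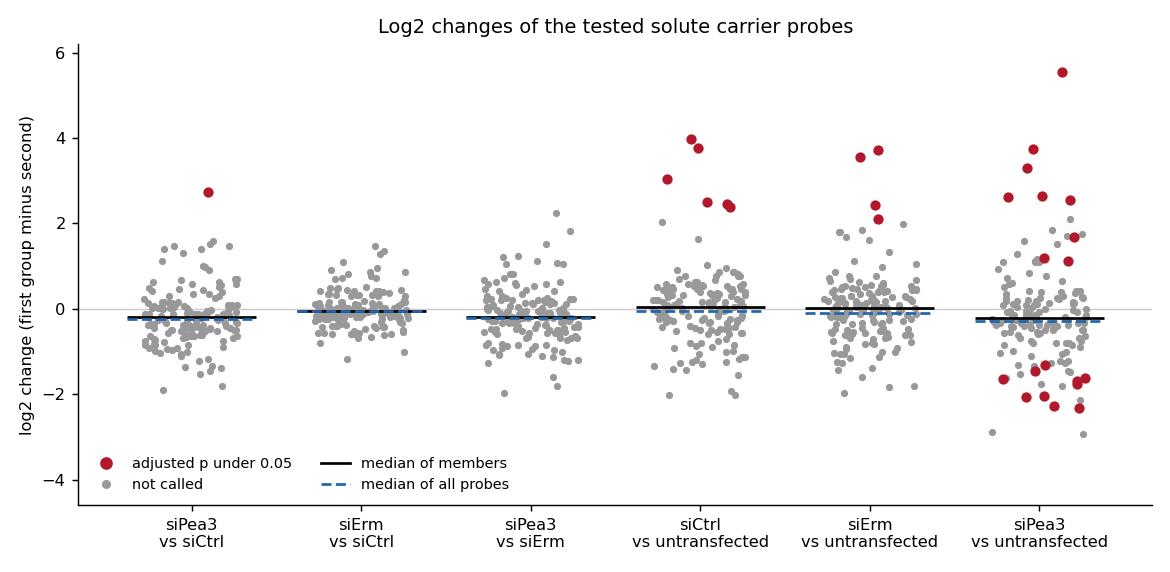
Log2 change of the 157 tested members in the 6 comparisons, 1 point per probe, with the median of the members (solid line) and of all 16724 tested probes (dashed line). Called members (red) number 1, 0, 0, 6, 4 and 19 from left to right, and those called in siCtrl and in siErm cells are all above 0.

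The transfected groups were each compared with untransfected cells. Such a difference holds the siRNA, the transfection and any difference between cultures or arrays, which cannot be told apart. In siCtrl cells, 6 members were called higher than in untransfected cells and 0 lower: Slc2a6, Slc16a9, Slc10a6, Slc15a3, Slc40a1 and Slc31a2. They come from 6 subfamilies and carry hexoses, monocarboxylates, sulfated steroids, peptides, iron and copper. The 6 are 3.822% of the tested members, against 1.02% of all probes called (0.903% higher and 0.12% lower). The members, Slc2a6 among them, were chosen with earlier results known. This share and the later ones against untransfected cells give no support of their own. All comparisons with untransfected cells share the same 2 untransfected arrays, so their values are given side by side and not as independent evidence.

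Slc2a6 changed most. Signal was 176, 165, 304 and 313 on the siPea3 arrays, 59.0, 52.7 and 87.2 on the siErm arrays, 54.8, 91.8 and 88.9 on the siCtrl arrays, and 3.74 and 6.39 on the untransfected arrays, all detected. Every transfected array stood above both untransfected arrays, and every siPea3 array above every siErm and siCtrl array. The log2 change against untransfected cells was 5.55 ± 0.39 in siPea3 cells (46.9-fold, adjusted p = 3.98e-05), 3.73 ± 0.41 in siErm cells (13.2-fold, adjusted p = 0.00228) and 3.97 ± 0.41 in siCtrl cells (15.6-fold, adjusted p = 0.00142). The step between siPea3 and siCtrl cells, given above, did not pass.

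Slc16a9 encodes monocarboxylate transporter 9, which in human cells exports carnitine. It had 38.3, 26.8, 30.2 and 27.8 on the siPea3 arrays, 33.01, 23.6 and 25.4 on the siErm arrays, 24.5, 40.6 and 29.8 on the siCtrl arrays, and 1.64 and 3.20 on the untransfected arrays. The 3 transfected groups overlapped one another and lay well above the untransfected arrays, by 3.73 ± 0.33, 3.56 ± 0.35 and 3.76 ± 0.35 on the log2 scale in siPea3, siErm and siCtrl cells (adjusted p = 0.000234, 0.00115 and 0.00073).

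The upstream sequences of these genes are shown because they had the largest changes against untransfected cells in siCtrl cells. From RefSeq, GRCm38.p6, that of Slc2a6 lies at chr2:27027999-27028248 on the minus strand and that of Slc16a9 at chr10:70245026-70245275 on the plus strand, both written 5′ to 3′ with the last base next to the start. Capitals mark the single match to any of the motifs, a PEA3 site read on the opposite strand (CTTCCT), 175 to 180 bases before the start of Slc16a9.
Slc2a6: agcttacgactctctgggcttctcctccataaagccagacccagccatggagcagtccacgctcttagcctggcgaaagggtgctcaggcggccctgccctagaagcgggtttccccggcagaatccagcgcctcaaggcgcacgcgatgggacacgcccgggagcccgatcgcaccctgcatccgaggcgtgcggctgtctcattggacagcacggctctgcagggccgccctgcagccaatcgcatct
Slc16a9: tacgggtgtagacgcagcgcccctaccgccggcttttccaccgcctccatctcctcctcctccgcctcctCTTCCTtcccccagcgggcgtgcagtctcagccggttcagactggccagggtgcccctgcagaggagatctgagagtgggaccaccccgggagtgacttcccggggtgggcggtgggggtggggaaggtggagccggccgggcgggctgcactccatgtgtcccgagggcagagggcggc
Of 8 members looked up, 6 were in the promoter table, and Slc16a9 was the 1 with a match. Those of Slc5a1, Slc2a6, Slc10a6, Slc31a2 and Slc35g1 held none, and Slc15a3 and Slc40a1 were not matched.

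Slc10a6, for a sodium-coupled carrier of sulfated steroids, had 12.6, 10.4, 19.6 and 15.7 on siPea3 arrays, 10.7, 11.1 and 15.4 on siErm arrays, 10.9, 35.2 and 16.7 on siCtrl arrays, and 1.98 and 2.60 on untransfected arrays. It was higher by 2.64 ± 0.43, 2.43 ± 0.46 and 3.04 ± 0.46 on the log2 scale (adjusted p = 0.00755, 0.0379 and 0.0108), and siCtrl array 2 stood above the other transfected arrays. The call in siErm cells was lost in 8 of 11 alternatives, among them each fit without 1 siErm or untransfected array. Without untransfected array 1 it was also lost in siPea3 (adjusted p = 0.0678) and siCtrl cells (0.0861). Slc31a2, for the endosomal copper protein CTR2, had 29.5, 25, 40.1 and 33.3 on siPea3 arrays, 21.3, 22.5 and 25.6 on siErm arrays, 21.1, 36.8 and 29.1 on siCtrl arrays, and 4.72 and 6.19 on untransfected arrays. Its changes were 2.54 ± 0.30, 2.09 ± 0.31 and 2.39 ± 0.31 (adjusted p = 0.00143, 0.011 and 0.00504), and the call in siErm cells was lost without siErm array 3 (0.0521) or untransfected array 1 (0.0897). For both genes all 10 transfected arrays lay above the untransfected ones.

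Slc15a3 and Slc40a1 were called in siPea3 and siCtrl cells and not in siErm cells. Slc15a3 had 88.7, 53.6, 102 and 78.2 on siPea3 arrays, 48.01, 51.8 and 36.3 on siErm arrays, 67.4, 112 and 50.2 on siCtrl arrays, and 16.4 and 10.0 on untransfected arrays. Its changes against untransfected cells were 2.61 ± 0.38 (adjusted p = 0.00447), 1.80 ± 0.40 (0.0794) and 2.49 ± 0.40 (0.0156), and the difference between siErm and siCtrl cells did not pass. In siErm cells it passed under 3 alternatives, quantile normalization (adjusted p = 0.00682), scaling to the detected probes (0.0116) and the stricter filter (0.0431), within 0.0068 to 0.232 over 11. In siCtrl cells its call was lost in 3 of 11 alternatives, among them without untransfected array 2 (adjusted p = 0.0625). Slc40a1, for ferroportin, which exports iron from cells, had 2.79, 1.19, 2.74 and 2.97 on siPea3 arrays, 2.21, 2.83 and 2.78 on siErm arrays, 2.88, 4.00 and 5.22 on siCtrl arrays, and 0.55 and 0.93 on untransfected arrays, where it was below detection. It was about 3.19-fold, 3.62-fold and 5.48-fold higher (adjusted p = 0.0389, 0.0979 and 0.0262). Its call was lost in 8 of 11 alternatives in siPea3 cells, among them without siPea3 array 1, 3 or 4 or untransfected array 1 (adjusted p of 0.0689 to 0.274). In siCtrl cells it was lost in 6 of 10, among them without siCtrl array 2 or 3 or untransfected array 1 (0.0868 to 0.18).

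In siErm cells 4 members passed against untransfected cells, all higher: Slc2a6, Slc16a9, Slc10a6 and Slc31a2 (2.548% of members, 0.783% of all probes, of which 0.7% higher and 0.0837% lower). After the 6 genes above, the biotin and pantothenate transporter gene Slc5a6 had the next smallest p in siErm cells, and in siCtrl cells the next after Slc7a2. Its siErm arrays read 5.68, 7.25 and 6.76 and its siCtrl arrays 4.73, 6.10 and 6.85, against 0.99 and 3.57 for the untransfected arrays (log2 1.80 ± 0.51 and 1.63 ± 0.51, adjusted p = 0.185 and 0.22). It did not pass in either, but did so in both without untransfected array 2 (adjusted p = 0.0214 and 0.0267). For Slc7a2, a cationic amino acid transporter gene, the log2 change in siCtrl cells was 2.04 ± 0.62 (adjusted p = 0.212). In siCtrl and siErm cells, 15 and 19 members had an unadjusted p under 0.05, as did 1906 and 1712 of all 16724 probes (limma). Of these members 5 and 7 were lower, and no lower member passed. Those with the smallest p were the chloride cotransporter gene Slc12a2 in siCtrl cells, at -1.18 ± 0.43 (adjusted p = 0.327), and Slc7a1, a cationic amino acid transporter gene, in siErm cells, at -1.42 ± 0.49 (0.315).

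Counts with arrays left out, here and below, are given without the share of all probes called in the same fit. They show nothing particular to carriers. Removing an untransfected array changed the counts of called members in siCtrl and siErm cells. Without array 1, 4 members were called higher in siCtrl cells and 2 in siErm cells, and 0 lower. Without array 2, 6 were called higher and 4 lower in siCtrl cells, and 4 higher and 5 lower in siErm cells. Without siErm array 3, 2 members were called in siErm cells.

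**Figure D3:**
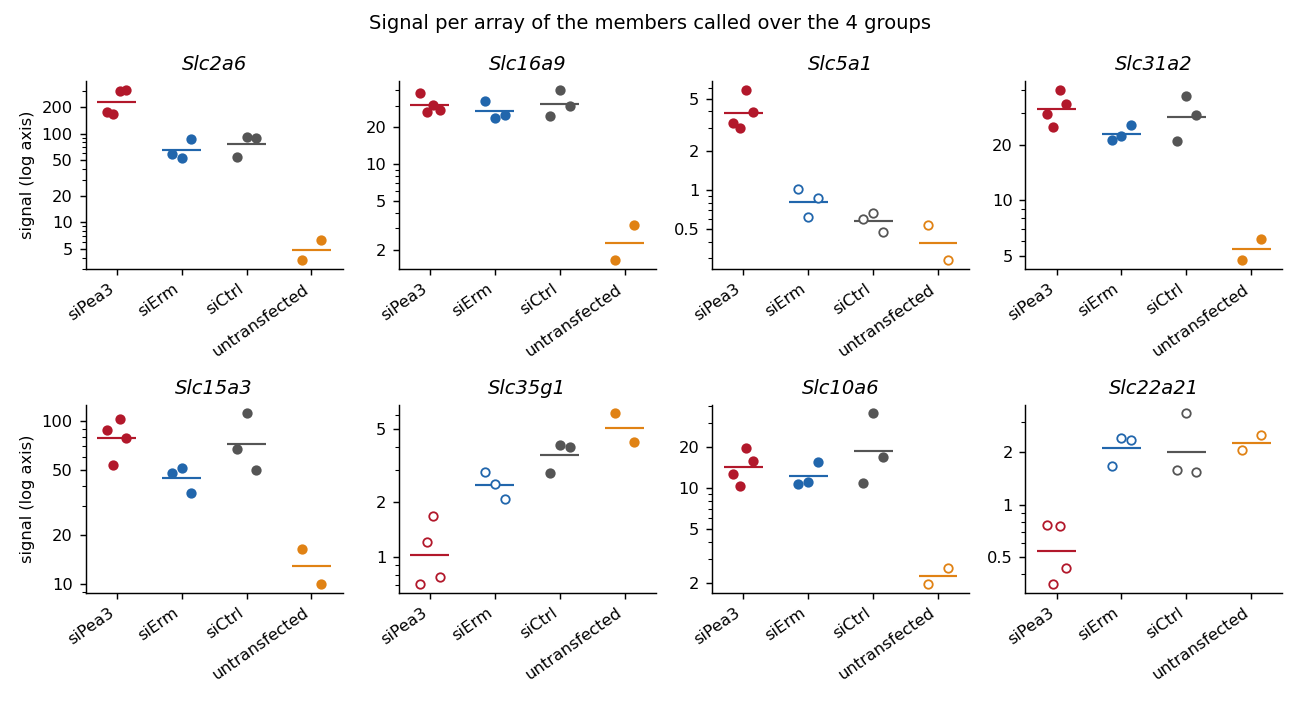
Signal per array (log axis, a separate scale for each gene) of the 8 members called by the F test over the 4 groups. Points are arrays, lines are geometric means, and points are filled where the probe was detected on every array of the group. Slc5a1 is filled in siPea3 cells alone, and 6 genes, Slc5a1 among them, have their lowest mean in untransfected cells.

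Members tested over the 4 groups were chosen with earlier results known, Slc5a1, Slc2a6 and Slc35g1 among them. The share called there gives no support of its own. The F test over the 4 groups called 8 members (5.096%, against 1.73% of all probes). They were Slc2a6, Slc16a9, Slc5a1, Slc31a2, Slc15a3, Slc35g1, Slc10a6 and Slc22a21, as plotted by array. Without untransfected array 1 this count was 3, without untransfected array 2 it was 13 and without siPea3 array 4 it was 4.

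Most calls were made between siPea3 and untransfected cells, where 9 members passed as higher and 10 as lower (12.102% of members, 6.37% of all probes). By direction, 2.55% of all probes were called higher and 3.81% lower. This comparison contains both the siRNA against Pea3 and the transfection. Beside Slc2a6, Slc16a9, Slc10a6, Slc15a3, Slc31a2 and Slc40a1, the higher members were Slc5a1, Slc35d1 and Slc2a9. Slc5a1 was higher by 3.29 ± 0.37 on the log2 scale, about 8.65-fold (adjusted p = 0.000997). Slc35d1, which encodes a carrier of UDP-glucuronic acid used in making glycosaminoglycans, had 13.1, 15.8, 22.5 and 15.5 on siPea3 arrays against 6.45 and 8.04 on untransfected arrays (1.19 ± 0.26, adjusted p = 0.0261). Slc2a9 had 53.7, 44.9, 55.9 and 47.5 on siPea3 arrays against 21.2 and 24.9 on untransfected arrays (1.13 ± 0.27, adjusted p = 0.0371). For Slc35d1 and Slc2a9 the changes in siErm and siCtrl cells were in the same direction, between 0.57 and 0.78, and did not pass.

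**Figure D4:**
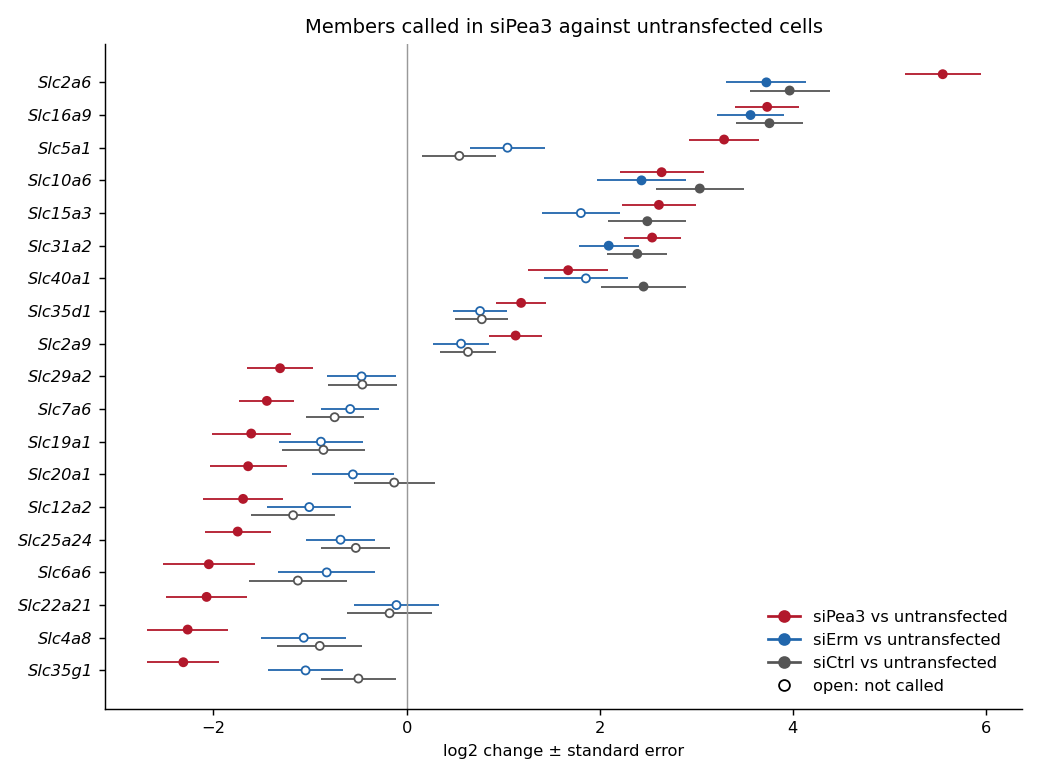
Log2 change ± standard error against untransfected cells of the 19 members called in siPea3 cells, for siPea3 (red), siErm (blue) and siCtrl (grey) cells, with filled points where the change passed. The 10 lower members passed in siPea3 cells and in neither other group.

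The 10 members lower in siPea3 than in untransfected cells were Slc35g1, Slc4a8, Slc22a21, Slc6a6, Slc25a24, Slc12a2, Slc20a1, Slc19a1, Slc7a6 and Slc29a2. Slc35g1 was lower by about 4.97-fold (log2 -2.31 ± 0.37, adjusted p = 0.00688) and Slc22a21 by about 3.65-fold (-2.07 ± 0.42, adjusted p = 0.0184). Slc4a8 encodes a sodium-driven chloride-bicarbonate exchanger. It had 5.10, 5.58, 6.04 and 6.17 on siPea3 arrays, 8.80, 23.96 and 10.7 on siErm arrays, 13.7, 19.2 and 12.2 on siCtrl arrays, and 19.2 and 39.3 on untransfected arrays (siPea3 against untransfected -2.27 ± 0.42, adjusted p = 0.0128). The siPea3 arrays were close together and below every other array.

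Slc6a6, the taurine transporter gene, had 4.69, 3.76, 4.00 and 3.93 on siPea3 arrays against 21.8 and 13.1 on untransfected arrays (log2 -2.05 ± 0.48, adjusted p = 0.0325). The siErm and siCtrl arrays spanned 4.91 to 19.9 and none reached down to the siPea3 arrays. Slc25a24 was lower by 1.75 ± 0.34 on the log2 scale, with 148 and 83.4 on untransfected arrays (adjusted p = 0.016). Slc7a6 had 15.04, 9.42, 14.1 and 15.6 on siPea3 arrays against 38.5 and 34.1 on untransfected arrays (-1.45 ± 0.28, adjusted p = 0.0163). The strand of Slc7a6os, which overlaps that locus, is measured by a probe of its own, which did not pass. Slc29a2 had 3.68, 3.48, 1.75 and 2.96 against 7.37 and 6.79 (-1.31 ± 0.34, adjusted p = 0.0451).

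For 4 of the 10, Slc4a8, Slc12a2, Slc20a1 and Slc19a1, the untransfected arrays themselves lay more than 2-fold apart. The sodium-potassium-chloride cotransporter gene Slc12a2 had 15.5, 7.12, 14.9 and 18.2 on siPea3 arrays against 65.3 and 27.7 on untransfected arrays (log2 -1.69 ± 0.41, adjusted p = 0.037). Slc20a1 had 211 and 88.1 on untransfected arrays (-1.64 ± 0.40, adjusted p = 0.0371). The reduced folate carrier gene Slc19a1 had 27.6, 16.7, 27.5 and 28.6 on siPea3 arrays against 134 and 41.9 on untransfected arrays (-1.61 ± 0.41, adjusted p = 0.0432). All siPea3 arrays were below both untransfected arrays in each case. Slc4a8 did not pass without untransfected array 2 (adjusted p = 0.0641). Without untransfected array 1 the other 3 did not pass, and 7 members in all were called, 6 higher and 1 lower, the lower one being Slc4a8. Without siPea3 array 3 there were 11 called and without siPea3 array 4 there were 12. Without siPea3 array 2, the dimmest array, there were 17, with 10 higher and 7 lower.

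The 19 calls differed in how many of the alternative settings kept them. Slc2a6, Slc16a9, Slc5a1, Slc15a3 and Slc31a2 passed in all 12, whereas Slc19a1 and Slc29a2 were lost in 10 of 12, Slc2a9 in 8 of 12, Slc20a1 in 7 of 12, and Slc35d1 and Slc6a6 in 6 of 12. Leaving out untransfected array 1 ended 13 of the calls, untransfected array 2 ended 4 (Slc2a9, Slc4a8, Slc22a21 and Slc29a2), and siPea3 arrays 1, 2, 3 and 4 ended 3, 4, 8 and 7. For the lower members Slc35g1, Slc7a6 and Slc25a24, untransfected array 1 was the single array whose removal ended the call, with adjusted p of 0.0648, 0.112 and 0.151.

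Calls were spread over subfamilies, and the counts here are for siPea3 against untransfected cells, where 6.37% of all probes were called, unless another comparison is named. In family 25, 1 of 29 tested probes was called (3.448%), Slc25a24. The median of these mitochondrial carriers was -0.37, against -0.28 for all probes. Of the 16 zinc transporters of families 30 and 39, 0 were called in any comparison (limma, lowest adjusted p = 0.247, and 1 probe at an unadjusted p under 0.05). Families of amino acid transporters held 27 tested probes, among them Slc7a6os and the serotonin transporter gene Slc6a4. Of these 2 were called (7.407%, near the share of all probes), Slc6a6 and Slc7a6, both lower, with a median of -0.26. The families named for sugar transport (2, 5, 45 and 50) held 13 tested probes, which include Slc5a6 and the monocarboxylate cotransporter gene Slc5a8. Of the 13, 3 were called higher, Slc2a6, Slc2a9 and Slc5a1 (23.08%, against 2.55% of all probes called higher), with a median of 0.66. Slc2a6 and Slc5a1 are among the genes always given, chosen with earlier results known, and the call of Slc2a9 was lost in 8 of 12 alternatives. Of the 5 iron, copper, manganese and magnesium transporters, Slc31a2 and Slc40a1 were called higher in siPea3 and in siCtrl cells and Slc31a2 alone in siErm cells.

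Several members were detected on every array of 1 group and on no array of another. Beside Slc5a1, Slc25a42 and Slc35g1, these were Slc7a1, the urea transporter gene Slc14a1, Slc25a37 and Slc25a38, all detected on both untransfected arrays and on 0 of the 4 siPea3 arrays. None of these 4 passed the test in any comparison. Slc25a37 encodes mitoferrin 1, which brings iron into mitochondria, and its probes disagree: the other probe was detected on all 12 arrays, with a log2 change of -0.27 in siPea3 against untransfected cells, where the first had -1.48. Of 7 genes with more than 1 probe, both probes of Slc25a36 and Slc39a1 were tested too, and neither passed in any comparison.

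The untransfected arrays differed from each other in a group of carriers named here after their values were seen. Of 155 members measured on both, 34 (21.94%) were more than 2-fold higher on array 1 and 14 (9.03%) on array 2, against 17.57% and 9.3% of all tested probes. Slc7a11, the cystine-glutamate exchanger gene, had 43.5 on array 1 and 1.04 on array 2, a 41.9-fold difference, and 1.55 to 10.9 on the transfected arrays. Slc3a2, the heavy chain gene that partners Slc7a11 and Slc7a5, had 372 on array 1 and 46.3 on array 2, with 71.5 to 130.2 on the transfected arrays. Slc7a5, the large neutral amino acid exchanger gene, had 328 on array 1 and 42.7 on array 2, with 32.6 to 63.8 on the transfected arrays. In all 3, array 1 stood above every other array of the series.

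The glycine transporter gene Slc6a9 (39.1 on array 1 and 4.38 on array 2), the neutral amino acid transporter genes Slc1a4 (3.96 and 0.64) and Slc1a5 (62.6 and 18.9), and the glutamine transporter gene Slc38a2 (93.2 and 35.96) followed the same order. So did the glucose transporter gene Slc2a1 (32.5 and 3.20), the lactate transporter gene Slc16a1 (11.3 and 0.94), the mitochondrial pyrimidine nucleotide carrier gene Slc25a33 (361 and 44.3) and the fatty acid transport gene Slc27a5 (36.4 and 4.54). Slc2a1 read nearly as high, 31.3, on siErm array 1. Of the 26 probes of amino acid transporter families measured on both arrays, 12 were more than 2-fold higher on array 1 and 2 on array 2. Of the 34 members higher on array 1, 26 lay on that array above all 10 transfected arrays, and array 2 lay within the transfected range for 25. The zinc importer gene Slc39a10 ran the other way, with 14.2 on array 1 and 80.1 on array 2. With 2 arrays these differences have no test, and whether they follow from the cultures or from the arrays cannot be told apart.

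**Figure D5:**
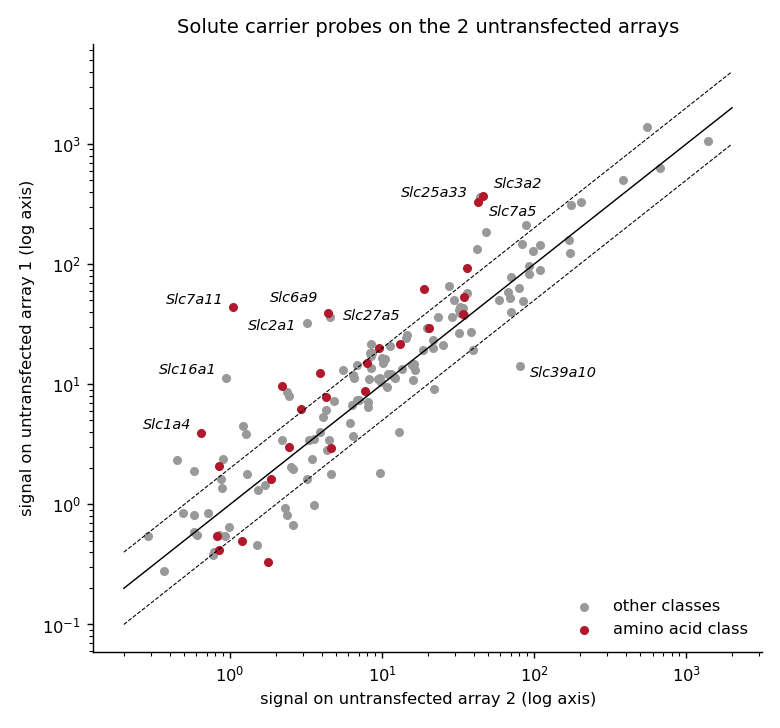
Signal of the tested members on untransfected array 1 against array 2 (log axes), 1 point per probe, with the amino acid transporter families in red, the line of equality and 2-fold lines (dashed). Slc7a11, Slc3a2, Slc7a5, Slc6a9 and Slc2a1 lie far above the upper 2-fold line and Slc39a10 far below the lower one.

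The zinc exporter gene Slc30a4 also differed between the untransfected arrays. It had 606, 535, 527 and 528 on siPea3 arrays, 537, 598 and 387 on siErm arrays, 635, 701 and 466 on siCtrl arrays, and 1384 and 554 on untransfected arrays. It was detected on all 12 arrays and the transfected groups overlapped. Its log2 change in siErm against untransfected cells was -0.81 ± 0.38 (adjusted p = 0.507).

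Other genes of transport were counted from fixed lists, with 51 tested probes. These were 6 probes of the SLCO organic anion transporters, 6 of mitochondrial carriers without an Slc symbol, 9 of partner proteins of solute carriers, 12 of ATP-driven ion pumps and 18 of ABC transporters. Among the 6 comparisons, calls were made in siPea3 against untransfected cells, with 3 of the 51 (5.882%, against 6.37% of all tested probes). They were Atp6v1d, a subunit gene of the vacuolar proton pump, at 247 ± 44.2 (SD, n = 4) and 106 ± 19.3 (n = 2) (log2 1.21 ± 0.28, adjusted p = 0.0301), the cholesterol exporter gene Abcg1, at 2.14 ± 0.79 and 9.80 ± 3.44 (-2.22 ± 0.42, adjusted p = 0.0149), and Abca8b, at 22.7 ± 3.69 and 3.14 ± 3.27 (3.40 ± 0.56, adjusted p = 0.00743). In the other 5 comparisons 0 of the 51 passed (limma, 1 to 8 at an unadjusted p under 0.05), with a lowest adjusted p of 0.0979.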

How the data were processed

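RNA of 12 cultures was amplified by reverse transcription and in vitro transcription, labelled with digoxigenin and read by chemiluminescence on single-colour Applied Biosystems AB1700 arrays, per the labels' protocols. Per the file headers, the intensity column that the authors deposited is their assay normalized signal, on a linear scale. A ratio of noise to signal stands beside it, per the file headers, and its inverse was taken as signal over noise. A status code, another deposited column, marks failed measurements, which were left out. The sources used here do not give the software, the background correction or any scaling between arrays. All 392662 filled values of the series table equalled those of the arrays, and its 3482 blanks were failed measurements.

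Groups came from the sample titles. The deposited intensities were converted to log2 with no rescaling. Probes detected (signal over noise of at least 3) on at least 2 arrays were kept, 16726 in all, and 16724 with values in every group were tested with limma 3.58.1 in R 4.3.3, using all 12 arrays, 1 coefficient per group, with 8 residual degrees of freedom and 3.06 from the prior. Adjustment was by Benjamini-Hochberg over these probes, and a probe was called under 0.05. The F test spans the 3 contrasts with untransfected cells. The test was tried on simulated data. Errors of log2 changes are standard errors, and those of signals standard deviations. A fold written with "about" takes, for a group without detection, the higher of the probe's signal and the array's lowest detected signal. Such a fold is an estimate and not a lower limit.

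Symbols came from the platform annotation and all 297 members matched RefSeq by gene identifier. Promoter sequences are those of RefSeq, build GRCm38.p6. In each comparison called members were named, and, in a direction with under 8 calls, the next by smallest p up to 8. Slc5a1, Slc2a6 and Slc35g1 are always given, as are members detected on every array of 1 group and on none of another, and exceptions are marked. The members, lists and rules were chosen with earlier results of these data known.

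Replicate numbers were checked as pairs. Deviations of same-numbered arrays correlated at 0.115 to 0.321 between siPea3 and siCtrl cells and at 0.225 to 0.312 between siErm and siCtrl cells, over 3 pairs each. Arrays with different numbers correlated at -0.3047 to 0.3186 and at -0.2565 to 0.0508. Deviations from a group mean cancel within the group, so a positive same-number correlation lowers the others. The contrast is in part built in. Both comparisons were taken as paired from the data and not from the labels. Between siPea3 and siCtrl cells the ranges overlap, so that pairing is uncertain. Alternatives were 2 normalizations, 2 filters, the groups compared alone, a replicate block and leaving out each array. The number of arrays limits the precision. Plots were made in Python 3.11.15 with matplotlib 3.10.9.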

Additional observations from a re-analysis of the deposited data

Results flagged for a closer look

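Among the 46 named probes, 5 had an array in the siPea3 group whose gap to the other 3 made up most of the group's range. The flag takes no account of the fold, which was small for Slc30a4. Chance alone flags about 1 in 20 groups.

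On siPea3 array 2, the dimmest array, the mitochondrial coenzyme A carrier gene Slc25a42 had a signal of 1.39, against 0.41 to 0.45 on the other siPea3 arrays. On that array the acylcarnitine carrier gene Slc25a20 had 4.50, against 11.2 to 13.5 on the others. Ferroportin, Slc40a1, had 1.19 there, against 2.74 to 2.97. The folate carrier gene Slc19a1 had 16.7 there, against 27.5 to 28.6. On siPea3 array 1 the zinc exporter gene Slc30a4 had 606, against 527 to 535. The lower signals of Slc25a20, Slc40a1 and Slc19a1 stand on the array with the lowest upper quartile of signal, 7.47, and whether that array's scale sets them was not tested.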

How the results depend on the processing

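Between siPea3 and siCtrl cells, 1 member was called, 2 under the stricter filter, and 0 with the replicate block or with the arrays of the groups compared alone, and 0 to 1 with each array left out. Between siPea3 and siErm cells the count was 0, and 1 with quantile normalization, with scaling to the detected probes or under the stricter filter. Between siErm and siCtrl cells it was 0 under every alternative run. For siCtrl against untransfected cells it was 6, 0 with these groups alone and 4 to 10 with each array left out. For siErm against untransfected cells it was 4, 2 with the replicate block, 0 with these groups alone and 2 to 9 with each array left out. For siPea3 against untransfected cells it was 19, 12 with no filter, 10 with the replicate block, 8 with these groups alone and 7 to 22 with each array left out. The F test called 8, 3 with the replicate block and 3 to 13 with each array left out. Same-numbered arrays of siPea3 and siErm cells (correlations of -0.042 to 0.08), and the 2 pairs of each comparison with untransfected cells, share only a number, and the block changed no other count by over 1.5 times. Fits with 1 untransfected array assume that it varies like the other groups.

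Of the single genes, 106 values lost their call under an alternative, 9 gained one, 1096 kept their side of the threshold, and none that was run changed direction. These values cover 103 pairs of gene and comparison. Most of the pairs were not called to begin with, so the 1096 cannot be read as calls that held. The cause of the lost and gained calls was not tested, beyond the fewer arrays in some fits. Medians over the members moved in 2 cases, both with scaling to the detected probes, to 0.10 in siPea3 against siCtrl and 0.11 in siPea3 against untransfected cells. Dim probes limit what can be seen: 140 members were detected on at most 1 array and not tested.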
